A study of Macaca mulatta with 22 samples.

Results

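Ruptured follicles of rhesus macaques (Macaca mulatta) were compared with follicles that had not ruptured at the same hour after the ovulatory stimulus. The 4 arrays whose titles mark the follicle as post-ovulatory were set against the 4 arrays whose titles mark it as pre-ovulatory, which makes 8 of the 22 arrays of the series. Each array holds the RNA of 1 dominant follicle, which is the follicle of a cycle that goes on to ovulate. The ruptured group is called ruptured and the other unruptured below. The question the comparison addresses is which transcripts differ between a follicle that has released its oocyte and one that has not, at 1 clock time.

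Both groups had the same treatment, per the labels' protocols. Females near the end of the follicular phase were given Acyline, a GnRH antagonist that blocks the pituitary's own gonadotropins, with recombinant human FSH and recombinant human LH (30 IU each). Recombinant human chorionic gonadotropin (hCG, 1000 IU) then stood in for the LH surge, and the ovary was removed 36 h later. The remaining arrays are of follicles at 0 h without hCG (6 arrays), at 12 h (4) and at 24 h (4) with hCG. They share the estimate of the spread here, and the change between 12 h and 0 h is used as a comparison. Sample titles speak of ovulatory follicles while the descriptions of these samples speak of the developing corpus luteum. Strain and age are not given in the labels used here, and the labels do not say for each array whether follicles came from separate animals, so the spread behind each p-value is that between follicle samples and may be in part technical.

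At ovulation the LH signal, carried in granulosa cells largely by cAMP, induces EGF-like ligands, the progesterone receptor and prostaglandin synthesis. These lead to expansion of the hyaluronan coat of the cumulus, proteolysis at the follicle's apex and release of the oocyte. The granulosa and theca cells that stay behind then luteinize, which means that they turn to cholesterol uptake and progesterone synthesis, and vessels and white cells move in. Intensities were measured on Affymetrix arrays, on which a gene is read by 1 or more probe sets, and all levels below are log2 intensities. A change is ruptured minus unruptured on that scale, so 1 is a 2-fold difference, and it is given with its standard error (SE) from a fit by limma, a linear model with moderated variances. A probe set is said to be called, to have risen or to have fallen where the Benjamini-Hochberg adjusted p over all probe sets was under 0.05.

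The groups stood apart on the leading axis of variation. The first principal component of the 8 arrays held 44.7% of the variance, with scores of 38.82 to 52.9 in ruptured and -55.91 to -40.33 in unruptured follicles. Correlations were 0.933 to 0.956 within the ruptured group, 0.946 to 0.964 within the unruptured group and 0.883 to 0.92 between them. The second component (13.5%) ran within the ruptured group, from -41.38 for replicate 7 to 53.95 for replicate 8, while the unruptured arrays lay between -8.23 and 7.65. Array medians were 26.43 to 26.72 on the linear scale in ruptured and 26.31 to 26.61 in unruptured follicles. The 3' minus 5' difference of 3 control transcripts is a sign of RNA quality, and its groups overlapped only narrowly. It ran from 0.22 to 0.292 in ruptured and from 0.281 to 0.375 in unruptured follicles. The means were 0.2685 ± 0.0328 SD in ruptured and 0.3235 ± 0.0387 in unruptured follicles (n = 4 each).

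Of 52766 probe sets, 5181 (9.82%) were called, of which 2549 (4.83%) rose and 2632 (4.99%) fell in ruptured follicles. Unadjusted p was under 0.05 for 11823. The numbers of rises and falls were close but the sizes were not, since the median change of the risen probe sets was 0.95 and that of the fallen ones -0.75. By at least 2-fold, 1852 probe sets (3.51%) were called, of which 1194 (2.26%) rose and 658 (1.25%) fell. Past a log2 change of 3 there were 108 that rose and 12 that fell. Of the called probe sets, 37.3% carry no single gene symbol in the annotation and go unnamed here. Over genes read by their brightest probe set, 915 of 14132 (6.47%) rose and 1084 (7.67%) fell, or 1999 (14.1%) in all, and these shares are the background for the gene lists below. Groups that did not overlap were more common than calls: all 4 ruptured follicles were above all 4 unruptured ones for 7.09% of probe sets and 9.23% of genes, and below them for 8.13% and 11.9%. The main fit pools the spread over all 5 groups, so its errors are not those of the compared groups alone. Fitted on the 8 arrays alone, which changes the spread used and leaves fewer arrays to estimate it, 1318 probe sets were called. The main list counts are therefore given from that fit as well. Of 173 called changes of named genes, 83 did not pass in that fit, which leaves the size of each change as it is and alters its error. The SE in that fit was larger than the one given below for JUNB (0.55), HAS1 (1.04) and SERPINB2 (1.15), and smaller for SOCS3 (0.69).

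**Figure D1:**
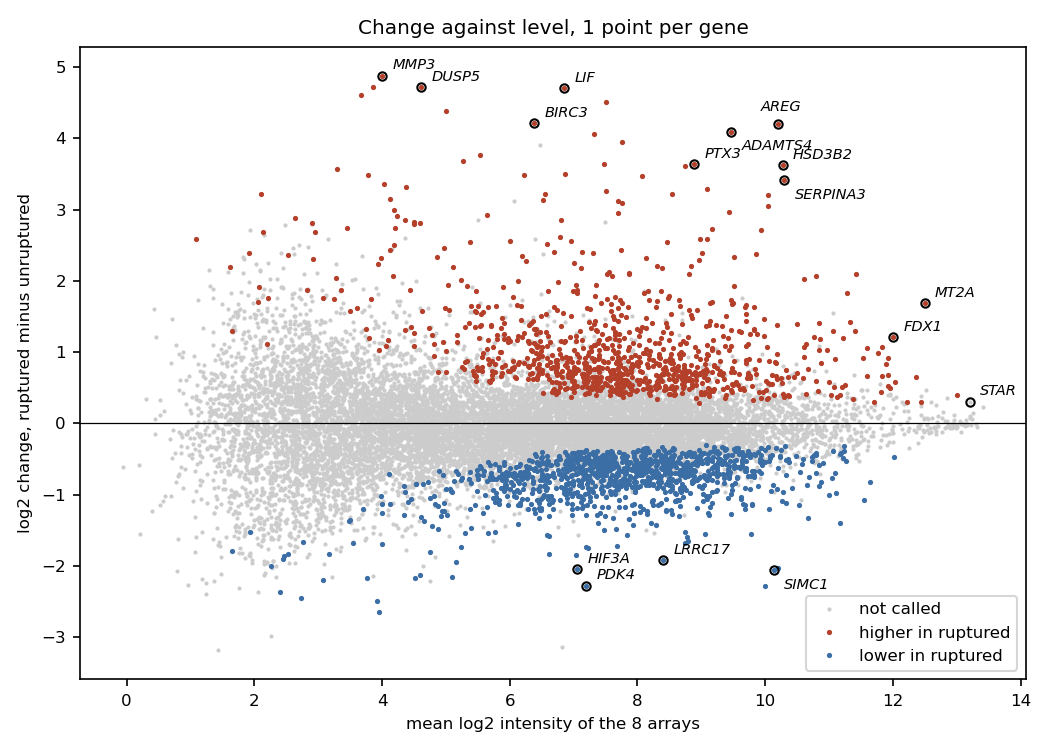
Log2 change between ruptured and unruptured follicles (vertical axis) against the mean log2 intensity of the 8 arrays (horizontal axis), 1 point per gene by its brightest probe set, with called genes coloured. The risen genes reach past 4 and the fallen ones mostly stay above -3, and most of the widely scattered points at the dim left end are not called.

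Among called genes with a mean of at least 7 in the higher group, the 14 highest held a cytokine, an EGF-like ligand and the proteases MMP1 and ADAMTS4. LIF codes for leukaemia inhibitory factor, a cytokine of the IL6 family. In ruptured follicles LIF read 9.13, 9.60, 9.55 and 8.52, and in unruptured follicles 4.35, 4.16, 4.66 and 4.80. The lowest ruptured follicle stood far above the highest unruptured one, and the change was 4.71 ± 0.55 (adjusted p = 4.98e-05). The values of AREG were 12.41, 12.10, 12.44 and 12.24 in ruptured and 6.08, 9.64, 8.83 and 7.81 in unruptured follicles. AREG codes for amphiregulin, an EGF-like ligand that passes the LH signal from granulosa to cumulus cells. The ruptured follicles lay within 0.34 of each other while the unruptured ones were spread over 3.56, and the groups did not overlap (change 4.20 ± 0.95 with adjusted p = 0.00795). The rest of the 14 were MMP1, MYH4, BIRC3, ADAMTS4, DIRAS3, PYROXD1, TNFAIP6, PHLDA1, HAS1, TPM2, SERPINB2 and PTX3. DIRAS3, a RAS-like GTPase gene, was the most even of these. DIRAS3 was at 9.81, 8.81, 9.97 and 8.80 in the ruptured follicles, against 5.34, 5.16, 5.24 and 5.42 in the unruptured ones. It differed by 4.06 ± 0.35 (adjusted p = 4.23e-06), and no unruptured follicle came near a ruptured one. MYH4, a skeletal muscle myosin heavy chain gene, varied widely within both groups. In ruptured follicles MYH4 read 7.49, 6.82, 5.05 and 9.41, and in unruptured follicles 4.20, 2.46, 0.34 and 4.24. Its change was 4.38 ± 0.92 (adjusted p = 0.0047), with an adjusted p of 0.0948 in the fit of the 8 arrays and a size of 2.73 with 16 added to the intensities. MMP1, TNFAIP6, PHLDA1 and TPM2 stand in the list through a dimmer probe set. For TPM2, a tropomyosin gene, that probe set gave 3.70 ± 0.66 (adjusted p = 0.00145). Its brightest probe set gave -0.18 (adjusted p = 0.673) and 2 of its 7 probe sets were called. PYROXD1 was called in 1 of 3 probe sets.

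**Figure D2:**
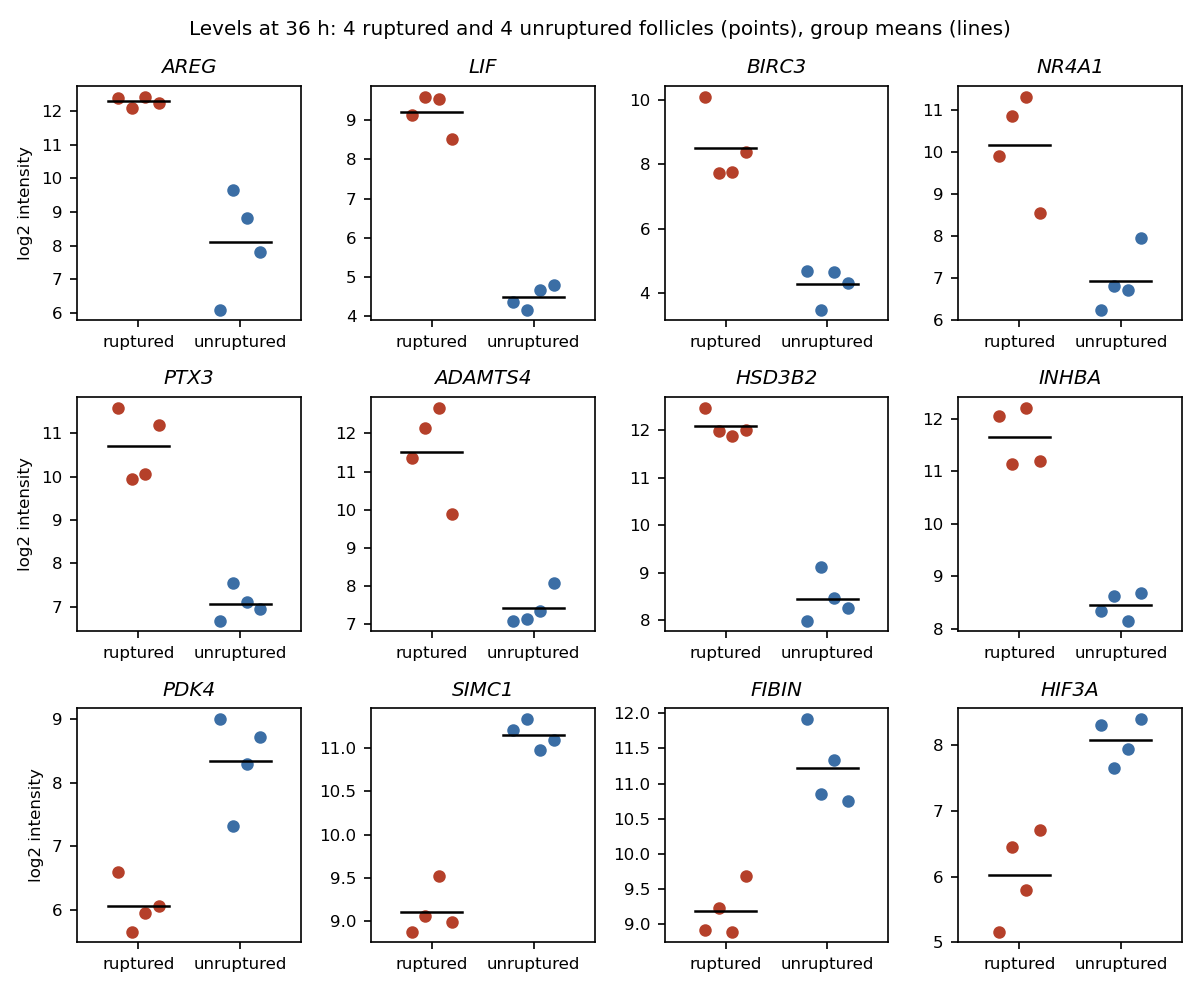
Log2 intensity (vertical axes) of 12 genes in each of the 4 ruptured (left, red) and the 4 unruptured follicles (right, blue), with lines at the group means. In none of the 12 panels do the groups overlap and the panels SIMC1, FIBIN, HIF3A and PDK4 are the 4 in which the ruptured follicles are lower.

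Genes of EGF-like ligands and of the brakes on their signal were among those that rose. Of 15 measured genes of EGF-like ligands, receptors and feedback inhibitors, 4 rose (3 in the fit of the 8 arrays alone) and 0 fell, and the median change was 0.12, against -0.06 over all genes. HBEGF codes for a second ligand, heparin-binding EGF-like growth factor. The values of HBEGF were 6.96, 7.58, 7.24 and 6.73 in ruptured and 4.97, 5.00, 5.07 and 5.49 in unruptured follicles. SPRY4 codes for a Sprouty inhibitor of receptor tyrosine kinase signalling. SPRY4 was at 8.05, 8.07, 7.50 and 7.97 in the ruptured follicles, against 5.57, 5.11, 5.78 and 5.52 in the unruptured ones. Neither gene's groups overlapped, and the changes were 2.00 ± 0.28 (adjusted p = 0.000249) for HBEGF and 2.40 ± 0.31 (adjusted p = 9.63e-05) for SPRY4. SPRED2, a related inhibitor, was the fourth. With the mean of all probe sets of a gene in place of the brightest, 2 of the list rose. EREG was not analysed here.

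The dual specificity phosphatases, which switch off MAP kinases, rose in 3 of 8 measured genes and fell in 0 (1 rose in the fit of the 8 arrays alone). DUSP1 was bright in all 8 follicles. In ruptured follicles DUSP1 read 12.17, 12.45, 12.68 and 11.51, and in unruptured follicles 9.42, 10.79, 10.70 and 10.56. Its lowest ruptured value was above the highest unruptured one, with a change of 1.84 ± 0.35 (adjusted p = 0.0026). DUSP5 was at 8.34, 7.89, 5.25 and 6.43 in ruptured follicles, against 2.09, -0.32, 3.48 and 3.77 in unruptured ones, which were dim (4.72 ± 0.93 with adjusted p = 0.00303). With 16 added to the intensities, which damps dim values, its change was 2.69. DUSP14 rose by 1.31 ± 0.18 (adjusted p = 0.000224).

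Transcription factors of the immediate early class, which are induced within minutes of a signal without new protein synthesis, were the list with the largest share of rises. Of 21 measured, 13 rose and 0 fell (3 rose in the fit of the 8 arrays alone and 10 to 16 with 1 array left out), and the median change was 1.50. NR4A1, an orphan nuclear receptor gene induced by cAMP, led them. The values of NR4A1 were 9.89, 10.84, 11.31 and 8.55 in ruptured and 6.24, 6.81, 6.72 and 7.96 in unruptured follicles. The ruptured follicles were spread over 2.755, replicate 8 lowest, yet did not overlap the unruptured ones, and the change was 3.21 ± 0.54 (adjusted p = 0.000888). JUNB was at 9.34, 10.29, 10.93 and 8.34 in the ruptured follicles, against 7.05, 6.66, 7.50 and 7.54 in the unruptured ones. JUNB, a subunit of the AP-1 factor, showed the same order of ruptured follicles and a change of 2.54 ± 0.44 (adjusted p = 0.00106). EGR2, a zinc finger factor, rose by 2.57 ± 0.58 (adjusted p = 0.00839), although ruptured replicate 8 (6.38) lay below unruptured replicate 4 (6.87). FOS, the partner of JUNB in AP-1, was at 9.01, 10.19, 10.86 and 7.85 in ruptured and 7.58, 7.93, 7.81 and 8.41 in unruptured follicles, which overlapped, and the change of 1.54 ± 0.49 (adjusted p = 0.0521) did not pass. The others that rose were CREM, MAFF, CSRNP1, BTG2, IER2, FOSL2, BHLHE40, KLF4, MYC and IER5. BHLHE40's groups overlapped, and its call ended in 7 of the 8 fits that left out 1 array. Its adjusted p in the fit of the 8 arrays was 0.154. In each of the 13, ruptured replicate 8 was the lowest of the ruptured follicles, and in 12 of them replicate 7 was the highest. Over all 915 genes that rose, replicate 8 was the lowest in 31.0%. EGR1 was not analysed here.

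Of 32 measured genes of cAMP signalling and its brakes, 6 rose (2 in the fit of the 8 arrays) and 1 fell. SIK1, a kinase gene induced by cAMP that restrains CREB coactivators, had a change of 2.17 ± 0.54 (adjusted p = 0.0142) with overlapping groups, and without ruptured replicate 7 its adjusted p was 0.0535 by the same limma test. RGS16, a G protein regulator gene, rose by 1.44 ± 0.25 (adjusted p = 0.00117). Leaving out ruptured replicate 5, 6 or 7 brought the number that rose to 3, 3 and 2.

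Of 24 measured cytokine and chemokine receptor genes, TNFRSF12A, OSMR and IL6ST rose and IL11RA fell. IL6ST codes for gp130, the signalling chain shared by receptors of the IL6 family, OSMR for the oncostatin M receptor chain, STAT3 for the factor these receptors activate and SOCS3 for the inhibitor that STAT3 induces. In ruptured follicles OSMR read 12.74, 12.22, 12.43 and 12.52, and in unruptured follicles 10.22, 10.51, 10.40 and 10.37. OSMR's groups were each spread over less than 0.6 and did not overlap, with a change of 2.10 ± 0.22 (adjusted p = 1.92e-05). The values of IL6ST were 8.87, 7.97, 8.19 and 7.86 in ruptured and 5.89, 6.96, 6.56 and 6.34 in unruptured follicles. STAT3 was at 9.03, 8.47, 9.15 and 8.61 in the ruptured follicles, against 7.48, 7.18, 7.70 and 7.52 in the unruptured ones. Both genes were higher in every ruptured follicle than in any unruptured one, by 1.79 ± 0.35 (adjusted p = 0.00303) for IL6ST and 1.34 ± 0.22 (adjusted p = 0.000863) for STAT3. SOCS3 was dim, at 5.46, 5.95, 6.36 and 5.05 in ruptured and 1.16, 3.23, 1.14 and 3.87 in unruptured follicles (3.36 ± 0.77 with adjusted p = 0.00892), and 16 added to the intensities gave 1.61. Other receptor chain genes of the IL6 family were not called higher. LIFR, the LIF receptor chain gene, had a change of 0.06 ± 0.30 (adjusted p = 0.948) and IL6R of -0.59 ± 0.23 (adjusted p = 0.124), both with overlapping groups, and IL11RA fell, with a change of -1.01 ± 0.14 (adjusted p = 0.000195). TNFRSF12A codes for the receptor of the TNF family cytokine TWEAK and was at 10.85, 10.48, 10.17 and 10.60 in ruptured follicles, against 7.72, 7.67, 7.79 and 8.00 in unruptured ones (2.73 ± 0.40 with adjusted p = 0.000302).

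Of 27 measured cytokine and chemokine genes, LIF, CCL2 and IL1RN rose and CXCL12 fell, and with the mean of all probe sets 8 rose. CCL2 codes for the main monocyte chemoattractant. In ruptured follicles CCL2 read 9.37, 9.13, 9.27 and 9.24, and in unruptured follicles 5.89, 5.34, 6.22 and 7.08. All 4 ruptured follicles lay within 0.24 of each other and above the unruptured ones, by 3.12 ± 0.45 (adjusted p = 0.000268). IL1RN, the gene of the interleukin 1 receptor antagonist, rose by 1.65 ± 0.33 (adjusted p = 0.00366). Of 17 macrophage and monocyte markers 0 were called by limma in all fits tried, and 0 had an unadjusted p under 0.05.

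Feedback genes of NF-kappaB and JAK-STAT signalling rose in 11 of 25 measured and fell in 1, TNFAIP2 (3 and 1 in the fit of the 8 arrays alone). BIRC3 codes for an inhibitor of apoptosis protein that NF-kappaB induces. The values of BIRC3 were 10.11, 7.74, 7.75 and 8.39 in ruptured and 4.69, 3.47, 4.65 and 4.30 in unruptured follicles. Ruptured replicate 5 stood highest, and all 4 were more than 3 above every unruptured follicle, with a change of 4.22 ± 0.47 (adjusted p = 2.98e-05) and calls in 2 of its 3 probe sets. BCL3 was at 8.21, 9.13, 9.48 and 7.48 in the ruptured follicles, against 6.34, 6.24, 6.57 and 6.73 in the unruptured ones. BCL3, an atypical IkappaB gene, rose by 2.10 ± 0.32 (adjusted p = 0.000386) without overlap. NFKBIZ, NFKBIE, RELB, NFKB1, PIM1, PIM3 and SOCS5 rose by smaller amounts. Of 26 cell death genes 9 rose, among them the survival genes BIRC3, BCL2A1 and CFLAR and the death genes PMAIP1, BAK1 and FAS, and 1 fell, TNFSF10. That count was 3 in the fit of the 8 arrays and 4 to 6 when 1 array was left out.

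Synthases and linkers of the hyaluronan matrix that cumulus cells build were among the genes that rose. Of 12 measured genes, HAS1, PTX3, TNFAIP6 and HAS2 rose and AMBP fell. PTX3 codes for pentraxin 3, which holds the hyaluronan mesh together. In ruptured follicles PTX3 read 11.59, 9.95, 10.06 and 11.18, and in unruptured follicles 6.67, 7.53, 7.10 and 6.95. The values of TNFAIP6 were 8.89, 8.44, 9.72 and 9.50 in ruptured and 4.86, 7.20, 5.94 and 5.48 in unruptured follicles. TNFAIP6 codes for the enzyme that moves heavy chains onto hyaluronan. Both were higher in every ruptured follicle, by 3.63 ± 0.43 (adjusted p = 5.94e-05) for PTX3 and 3.27 ± 0.64 (adjusted p = 0.00293) for the brightest TNFAIP6 probe set. The hyaluronan synthases were dimmer. HAS1 was at 6.70, 8.24, 9.68 and 5.08 in the ruptured follicles, against 3.37, 2.05, 4.50 and 4.73 in the unruptured ones. In ruptured follicles HAS2 read 6.51, 6.68, 6.57 and 5.02, and in unruptured follicles 4.36, 4.01, 3.00 and 3.58. HAS1 differed by 3.76 ± 0.75 (adjusted p = 0.00351) and HAS2 by 2.46 ± 0.74 (adjusted p = 0.0397). HAS2's call ended in 7 of the 8 fits that left out 1 array, with adjusted p up to 0.104, and its change was 1.61 with 16 added. HAS1's call ended in the fit of the 8 arrays (adjusted p = 0.106).

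Of 29 measured matrix protease genes, 9 rose and 2 fell (6 and 1 in the fit of the 8 arrays alone). MMP1 is the interstitial collagenase gene, and ADAMTS4 codes for an aggrecanase that also cuts versican. The values of MMP1 were 9.74, 9.11, 10.05 and 10.13 in ruptured and 5.93, 5.21, 5.83 and 4.04 in unruptured follicles. ADAMTS4 was at 11.35, 12.14, 12.67 and 9.89 in the ruptured follicles, against 7.10, 7.13, 7.36 and 8.10 in the unruptured ones. The change was 4.50 ± 0.64 (adjusted p = 0.000233) for MMP1 and 4.09 ± 0.46 (adjusted p = 3.4e-05) for ADAMTS4, and neither gene's groups overlapped. MMP3, the stromelysin 1 gene, was at 6.76, 4.78, 6.92 and 7.32 in ruptured and 1.94, 2.18, 0.27 and 1.88 in unruptured follicles (4.88 ± 0.86 with adjusted p = 0.00127), the unruptured ones at the dim end of the arrays, and 16 added gave 2.47. ADAMTS1, the versicanase gene known as a target of the progesterone receptor in the mouse, rose by 1.21 ± 0.33 (adjusted p = 0.0261) with overlapping groups. Its adjusted p was between 0.0554 and 0.094 without ruptured replicate 6 or 7 or unruptured replicate 1, 2 or 3, and 0.202 in the fit of the 8 arrays. ADAMTS5, another aggrecanase gene, went the other way. In ruptured follicles ADAMTS5 read 8.03, 8.06, 8.33 and 8.72, and in unruptured follicles 9.91, 9.58, 9.99 and 9.86. It was lower in every ruptured follicle (-1.55 ± 0.21 with adjusted p = 0.000153). MMP19, PLAU, PLAUR, CTSL and ADAM12 also rose and ADAMTS9 also fell.

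Of 19 measured inhibitor genes, SERPINB2, SERPINA3 and TFPI2 rose and RECK fell (2 and 0 in the fit of the 8 arrays). SERPINA3 codes for alpha-1-antichymotrypsin and was bright in ruptured follicles. The values of SERPINA3 were 12.21, 11.58, 11.68 and 12.55 in ruptured and 9.23, 7.82, 8.19 and 9.15 in unruptured follicles. SERPINB2 was at 9.31, 5.62, 4.27 and 9.24 in the ruptured follicles, against 3.86, 3.55, 3.17 and 3.12 in the unruptured ones. SERPINA3 differed by 3.41 ± 0.36 (adjusted p = 1.94e-05). SERPINB2, plasminogen activator inhibitor 2, was high in ruptured replicates 5 and 8 and nearer the unruptured follicles in 6 and 7 (3.69 ± 0.80 with adjusted p = 0.00589), and its adjusted p in the fit of the 8 arrays was 0.139. F3 codes for tissue factor, which starts coagulation. In ruptured follicles F3 read 11.72, 11.86, 11.09 and 11.60, and in unruptured follicles 8.36, 8.20, 7.70 and 9.81. It was higher by 3.05 ± 0.48 (adjusted p = 0.000497) with no overlap, and F3, PLAUR, PLAU, CD55 and THBD were the 5 of 27 complement and coagulation genes that rose, with 0 that fell (3 rose in the fit of the 8 arrays). PLAUR, the urokinase receptor gene, rose by 1.58 ± 0.27 (adjusted p = 0.00117). Among 17 laminin and integrin genes the integrins ITGA2, ITGB3, ITGAV and ITGB1 rose and the laminins LAMA2, LAMB2 and LAMB1 fell (1 and 0 in the fit of the 8 arrays). ITGA2, a collagen receptor subunit, was at 8.82, 7.77, 7.59 and 8.35 in ruptured follicles, against 6.08, 5.75, 5.65 and 6.07 in unruptured ones (2.25 ± 0.28 with adjusted p = 8.73e-05). Collagens and fibrillar matrix genes moved in 2 of 31, THBS2 up and FBLN5 down (1 and 0 in the fit of the 8 arrays).

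Among steroid synthesis genes an enzyme, an electron carrier and cholesterol carriers rose. HSD3B2 makes progesterone from pregnenolone. The values of HSD3B2 were 12.47, 11.99, 11.88 and 12.01 in ruptured and 7.99, 9.13, 8.47 and 8.25 in unruptured follicles. The groups were 2.75 apart at their nearest, and the change was 3.63 ± 0.42 (adjusted p = 4.48e-05). FDX1 was at 12.57, 12.54, 12.61 and 12.69 in the ruptured follicles, against 10.96, 11.79, 11.51 and 11.33 in the unruptured ones. FDX1, ferredoxin 1, which passes electrons to the side chain cleavage enzyme, rose by 1.21 ± 0.20 (adjusted p = 0.000724). STAR moves cholesterol into mitochondria. In ruptured follicles STAR read 13.35, 13.36, 13.39 and 13.31, and in unruptured follicles 12.96, 13.01, 13.28 and 12.93. It was bright in all 8 follicles, and its change of 0.31 ± 0.15 (adjusted p = 0.24) did not pass even though its groups did not overlap. NPC1, which exports cholesterol from lysosomes, rose by 1.19 ± 0.20 (adjusted p = 0.00078), and STARD4 was the fourth of 13 measured genes to rise, with 0 that fell (2 rose in the fit of the 8 arrays). CYP17A1, needed for androgens, was at 6.83, 7.10, 7.75 and 7.28 in ruptured and 7.79, 7.83, 7.10 and 7.45 in unruptured follicles, and aromatase, CYP19A1, at 7.47, 6.74, 9.11 and 6.31 and 5.56, 5.32, 7.05 and 5.96 in the same order. Their groups overlapped and the changes of -0.30 ± 0.41 (adjusted p = 0.741) and 1.44 ± 0.66 (adjusted p = 0.198) did not pass. The progesterone receptor gene PGR gave 0.57 ± 0.43 (adjusted p = 0.495).

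Of 17 measured genes of cholesterol synthesis 9 rose and 0 fell (3 in the fit of the 8 arrays alone and 5 without unruptured replicate 1), and the median change was 0.81. SQLE codes for squalene epoxidase, an enzyme of sterol synthesis. The values of SQLE were 9.48, 9.54, 9.09 and 8.57 in ruptured and 7.08, 7.87, 7.00 and 7.83 in unruptured follicles. DHCR7 was at 9.46, 8.84, 8.83 and 8.97 in the ruptured follicles, against 6.44, 7.23, 7.83 and 7.28 in the unruptured ones. DHCR7 makes the last step to cholesterol. Both were higher in every ruptured follicle, by 1.72 ± 0.32 (adjusted p = 0.00218) for SQLE and 1.83 ± 0.45 (adjusted p = 0.0129) for DHCR7, whose adjusted p without unruptured replicate 1 was 0.0513. CYP51A1 rose by 1.67 ± 0.32 (adjusted p = 0.00244), and INSIG1, IDI1, HSD17B7, MVD, STARD4 and SREBF1 were the others. HSD17B7's call ended in 5 of the 8 fits that left out 1 array, unruptured replicate 1 or 4 or ruptured replicate 5, 6 or 7 (adjusted p 0.0616 to 0.101). FASN, fatty acid synthase, rose by 0.80 ± 0.17 (adjusted p = 0.00473) and LPL, lipoprotein lipase, fell, with a change of -0.74 ± 0.18 (adjusted p = 0.0109). They belong to a list of 21 measured genes of fatty acid and lipid handling, of which 2 rose (9.52%) and 1 fell (4.76%). Over all genes 6.47% rose and 7.67% fell. In the fit of the 8 arrays 1 of the list rose and 0 fell, and LPL's adjusted p was 0.135.

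Ribosome assembly gave the highest number of rises of the 67 lists. Of 41 measured genes of the nucleolar assembly machinery and RNA polymerase I, 21 rose and 0 fell, 7 in the fit of the 8 arrays alone and 17 to 21 with 1 array left out. RRP12 and RRP9 code for processing factors of the small subunit's RNA. In ruptured follicles RRP12 read 7.63, 7.48, 7.23 and 7.78, and in unruptured follicles 6.06, 6.00, 4.83 and 5.81. The values of RRP9 were 8.02, 7.41, 7.49 and 7.69 in ruptured and 6.63, 6.31, 6.47 and 6.33 in unruptured follicles. The changes were 1.85 ± 0.23 (adjusted p = 8.26e-05) and 1.22 ± 0.15 (adjusted p = 8.58e-05) in that order, with no overlap for either gene. The median over the list was 0.56. Of 33 cytosolic ribosomal protein genes 2 rose and 2 fell, with a median of -0.02. In the fit of the 8 arrays 1 rose and 0 fell. RPL19 rose by 1.30 ± 0.22 (adjusted p = 0.00114), RPS10 fell, with a change of -0.77 ± 0.14 (adjusted p = 0.00212), and RPS19, at 1.49 ± 0.52 (adjusted p = 0.0828), did not pass. Of 11 aminoacyl tRNA synthetase genes, which load amino acids onto tRNAs, 4 rose, 1 in the fit of the 8 arrays and 9 with the mean of all probe sets. The amino acid transporter SLC7A5 was dim throughout, at 4.38, 5.20, 6.07 and 4.64 in ruptured and 2.36, 0.42, 2.12 and 1.12 in unruptured follicles (3.56 ± 0.68 with adjusted p = 0.00236), and 16 added gave 1.40.

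**Figure D3:**
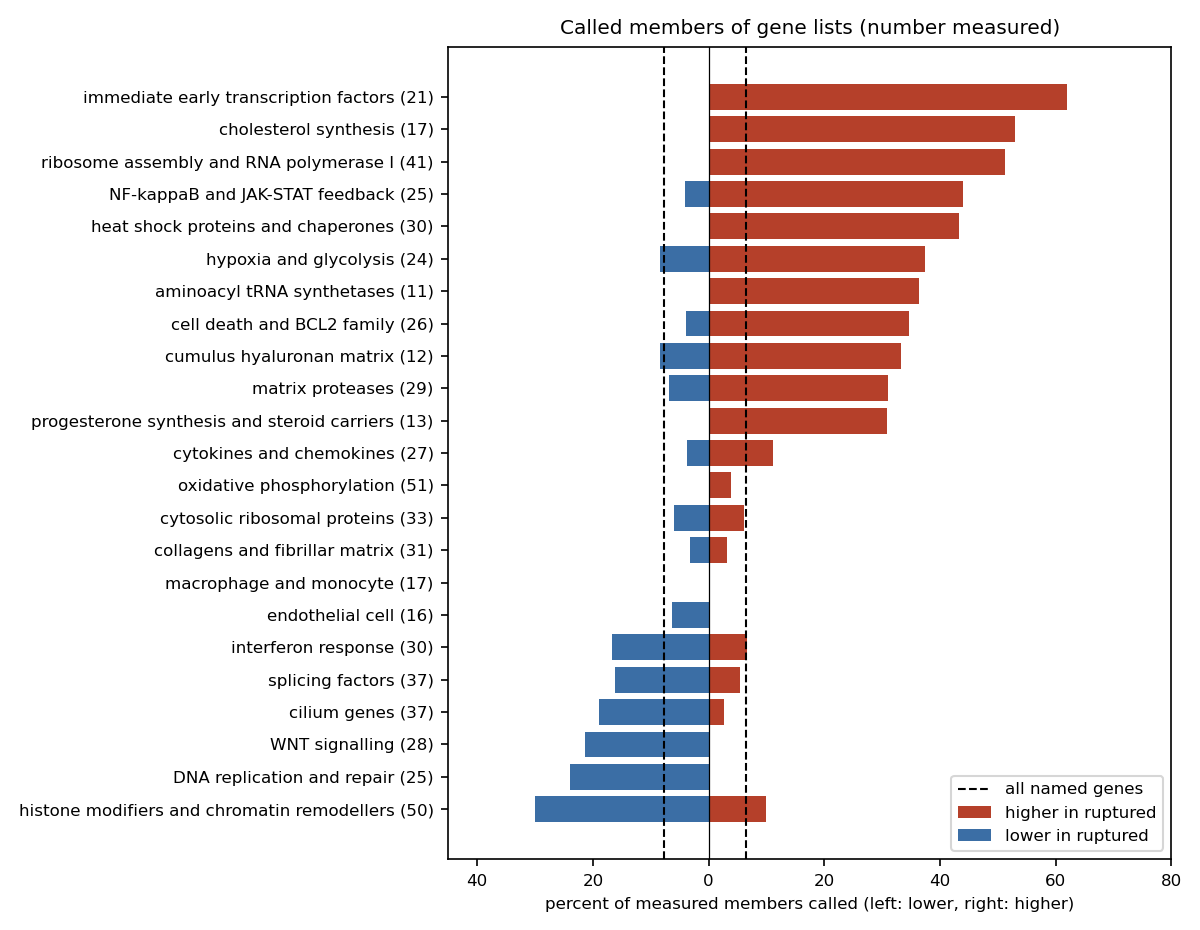
Share of the measured members of 23 gene lists that rose (right, red) or fell (left, blue) in ruptured follicles, in percent, with the number measured in brackets and dashed lines at the shares over all named genes (6.47% rose, 7.67% fell). Immediate early factors, cholesterol synthesis and ribosome assembly lie above 50% on the right, and no macrophage marker was called.

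Chaperones rose in 13 of 30 measured genes and fell in 0 (3 in the fit of the 8 arrays alone, 8 without ruptured replicate 5). HSPH1, a large heat shock protein that exchanges the nucleotide of HSP70, was at 10.70, 10.44, 11.31 and 9.69 in ruptured follicles, against 9.05, 8.45, 8.93 and 9.07 in unruptured ones (1.66 ± 0.27 with adjusted p = 0.000671). BAG3, a co-chaperone of HSP70, rose by 1.21 ± 0.19 (adjusted p = 0.000499). Of the 21 genes of the unfolded protein response 5 rose, among them XBP1 (0.69 ± 0.11 with adjusted p = 0.000728) and MANF (0.77 ± 0.20 with adjusted p = 0.0189), and 1 fell. This count was 1 in the fit of the 8 arrays and 2 without ruptured replicate 5. KDELR2, which returns escaped proteins to the endoplasmic reticulum, had a change of -2.28 ± 0.53 (adjusted p = 0.00948) with overlapping groups, and an adjusted p of 0.107 in the fit of the 8 arrays. Subunits of oxidative phosphorylation were called in 2 of 51, both higher, and in 0 in the fit of the 8 arrays.

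Genes of glucose uptake and of lactate formation and export were among those that rose. Of 24 genes of hypoxia and glycolysis 9 rose and 2 fell (5 and 1 in the fit of the 8 arrays). SLC2A3 codes for the glucose transporter GLUT3 and LDHA for the lactate dehydrogenase subunit that turns pyruvate to lactate. SLC2A3 was at 7.70, 8.03, 8.41 and 7.91 in the ruptured follicles, against 5.76, 6.59, 6.76 and 6.48 in the unruptured ones. In ruptured follicles LDHA read 12.14, 11.96, 12.28 and 12.12, and in unruptured follicles 10.88, 11.08, 11.37 and 10.95. The changes were 1.61 ± 0.21 (adjusted p = 0.000131) and 1.05 ± 0.15 (adjusted p = 0.000302) in that order, without overlap. SLC16A3, the lactate exporter gene, rose by 1.65 ± 0.27 (adjusted p = 0.000715), and ENO2, ALDOC, SLC2A1, HK2, PKM and ENO1 were the others. The values of PDK4 were 6.59, 5.65, 5.95 and 6.06 in ruptured and 9.01, 7.32, 8.30 and 8.72 in unruptured follicles. PDK4 codes for the kinase that shuts the pyruvate dehydrogenase complex, and it fell furthest of the 14 lowest genes described below (-2.27 ± 0.34 with adjusted p = 0.000337), with each ruptured follicle below every unruptured one. DLAT, a subunit of that complex, rose by 0.67 ± 0.12 (adjusted p = 0.00161), and its adjusted p in the fit of the 8 arrays was 0.0552. A dimmer DLAT probe set gave a larger change, 2.13 ± 0.22 (adjusted p = 1.98e-05). P4HA1, a collagen prolyl hydroxylase gene induced by hypoxia, and GPI fell.

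Metallothioneins, small proteins that bind zinc and are induced by glucocorticoids and metals, were bright. MT2A was at 13.35, 13.20, 13.44 and 13.37 in the ruptured follicles, against 11.76, 10.60, 12.30 and 11.94 in the unruptured ones. The ruptured follicles lay within 0.23 of each other, and the change was 1.69 ± 0.27 (adjusted p = 0.000698). MT1X rose by 2.20 ± 0.44 (adjusted p = 0.00332). In the fit of the 8 arrays the adjusted p was 0.054 for MT2A and 0.0664 for MT1X. Other genes known to respond to glucocorticoids went down, TSC22D3 and ZBTB16, so that 4 of the 11 measured rose and 2 fell. In the fit of the 8 arrays 0 rose and 2 fell. Of 27 genes of redox defence, MT1X, MT2A and SRXN1 rose, and TXNIP, CAT and GSTT1 fell. In ruptured follicles GSTT1 read 6.44, 6.26, 6.09 and 6.53, and in unruptured follicles 8.21, 7.98, 8.01 and 8.05. GSTT1, a glutathione transferase gene, differed by -1.73 ± 0.27 (adjusted p = 0.000475), with each group spread over less than 0.5.

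INHBA codes for the beta A subunit of inhibin and activin. The values of INHBA were 12.05, 11.13, 12.21 and 11.20 in ruptured and 8.33, 8.63, 8.16 and 8.68 in unruptured follicles. Every ruptured follicle was at least 2.45 above the highest unruptured one (3.20 ± 0.46 with adjusted p = 0.000245). FSTL3, a secreted binder of activin, rose by 1.64 ± 0.20 (adjusted p = 7.38e-05). The inhibin, activin and AMH list held 13 measured genes, of which 2 rose and 2 fell (2 and 0 in the fit of the 8 arrays). AMHR2, the AMH receptor gene, was among those that fell, with a change of -0.94. BMP2 was at 9.14, 7.31, 7.62 and 7.82 in the ruptured follicles, against 6.15, 6.28, 6.09 and 6.01 in the unruptured ones. BMP2 rose by 1.84 ± 0.32 (adjusted p = 0.00126), with ruptured replicate 5 highest, and its adjusted p was 0.0536 in the fit of the 8 arrays. SMAD6, the inhibitor of BMP signalling, was lower in every ruptured follicle, at 5.87, 5.52, 5.33 and 6.49 against 7.54, 7.32, 7.29 and 7.29 in unruptured ones (-1.56 ± 0.22 with adjusted p = 0.000248). TGF-beta, BMP and GDF signalling genes went both ways, with 5 of 26 measured that rose and 3 that fell. The median change of that list was -0.13, and in the fit of the 8 arrays 1 rose and 1 fell. NPPC codes for C-type natriuretic peptide, which holds the oocyte in meiotic arrest through its receptor NPR2 in mice. In ruptured follicles NPPC read 6.77, 6.04, 4.97 and 6.08, and in unruptured follicles 1.13, 1.40, 1.83 and 1.09. The unruptured values were at the dim end, and the change of 4.60 ± 0.42 (adjusted p = 7.14e-06) was 2.10 with 16 added. The values of NPR2 were 6.41, 7.08, 6.94 and 6.83 in ruptured and 7.97, 7.77, 7.57 and 7.62 in unruptured follicles. NPR2 was lower in every ruptured follicle (-0.92 ± 0.16 with adjusted p = 0.00102), and its adjusted p in the fit of the 8 arrays was 0.0555. ESR2, the estrogen receptor beta gene, rose by 1.63 ± 0.37 (adjusted p = 0.00879), with an adjusted p of 0.123 in the fit of the 8 arrays. The list of ovarian receptors, which holds NPPC, NPR2 and ESR2, had 13 measured genes. Of these 2 rose and 1 fell (1 and 0 in the fit of the 8 arrays).

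The 14 lowest genes fell less far than the 14 highest rose. After PDK4 came SIMC1, HIF3A, FIBIN, LRRC17, ARHGEF26, CHN2, FZD7, POU2AF3, GSTT1, OMD, NINL, GATM and RIMKLB, with changes down to -2.06 and up to -1.60. FZD7, OMD and GATM stand there through a dimmer probe set. SIMC1 was at 8.87, 9.05, 9.52 and 8.98 in the ruptured follicles, against 11.21, 11.35, 10.98 and 11.10 in the unruptured ones. SIMC1, a gene of a SUMO-binding protein, had both groups spread over less than 0.7 and a change of -2.06 ± 0.21 (adjusted p = 1.92e-05). HIF3A codes for an alpha subunit that opposes the other hypoxia inducible factors. In ruptured follicles HIF3A read 5.16, 6.45, 5.79 and 6.72, and in unruptured follicles 8.30, 7.65, 7.95 and 8.41. It fell in 2 of its 5 probe sets, by the brightest with -2.05 ± 0.30 (adjusted p = 0.000286). The values of FIBIN were 8.92, 9.24, 8.90 and 9.69 in ruptured and 11.92, 10.85, 11.34 and 10.76 in unruptured follicles. FIBIN, a gene of a secreted fin bud factor, was lower in every ruptured follicle (-2.03 ± 0.28 with adjusted p = 0.000193), as was LRRC17, at 7.07, 7.39, 7.84 and 7.44 in ruptured and 9.49, 9.85, 9.55 and 8.52 in unruptured follicles (-1.92 ± 0.28 with adjusted p = 0.000308). OMD codes for osteomodulin, a small leucine-rich matrix protein, and GATM for the enzyme that starts creatine synthesis, and both fell in each of their 3 probe sets.

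WNT signalling genes fell in 6 of 28 measured and rose in 0 (1 in the fit of the 8 arrays alone, 3 without unruptured replicate 1 or without unruptured replicate 4). Of the 6, 4 are Frizzled receptors, FZD7, FZD5, FZD1 and FZD4, and the others are TCF7L2, the nuclear effector of beta-catenin, and AXIN2, an inhibitor that the pathway itself induces. FZD7 was at 8.12, 7.61, 6.92 and 9.01 in the ruptured follicles, against 9.91, 9.41, 9.08 and 9.94 in the unruptured ones. Its groups did not overlap (-1.67 ± 0.36 with adjusted p = 0.00591), and in the fit of the 8 arrays its adjusted p was 0.0995. AXIN2 differed by -1.13 ± 0.16 (adjusted p = 0.00028) and TCF7L2 by -1.09 ± 0.24 (adjusted p = 0.00779). Chromatin genes went both ways. Of 50 histone modifiers and remodellers 15 fell and 5 rose, 2 and 4 in the fit of the 8 arrays. The methyltransferase genes EZH1 and DNMT1, the acetyltransferase genes EP300, CREBBP and KAT2A, and the demethylase genes KDM5A and KDM3B were among those that fell. DOT1L (1.53 ± 0.25 with adjusted p = 0.000772), KAT6A (1.23 ± 0.16 with adjusted p = 9.9e-05) and TET3 (1.18 ± 0.26 with adjusted p = 0.00607) led those that rose. The number that fell was 7 to 9 without unruptured replicate 1 or 4 or ruptured replicate 5 or 6.

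Smaller falls ran through several other lists. Of 37 cilium genes 7 fell and 1 rose (4 and 0 in the fit of the 8 arrays), led by BBS4, a subunit of the Bardet-Biedl trafficking complex (-1.18 ± 0.17 with adjusted p = 0.000236). Of 37 splicing factors 6 fell, among them RBM5 (-0.75 ± 0.13 with adjusted p = 0.00133), and 2 rose (1 and 0 in the fit of the 8 arrays). Of 25 genes of DNA replication and repair 6 fell and 0 rose, 0 of them called in the fit of the 8 arrays and 2 without unruptured replicate 2 or 4. The proliferation marker MKI67 gave 0.07 ± 0.33 (adjusted p = 0.939). Of 30 interferon response genes 5 fell, MX1 (-1.17 ± 0.28 with adjusted p = 0.0122), IFIH1, IFIT3, XAF1 and HERC6, and 2 rose, ISG20 and OAS1, with 3 falling without unruptured replicate 3 or 4 or ruptured replicate 5. In the fit of the 8 arrays 1 fell and 0 rose.

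Few markers of cell types were called. Bulk RNA cannot tell fewer cells of a type from less RNA per cell. Of 16 endothelial markers 1 was called, TEK, which fell, and its call ended in each of the 8 fits that left out 1 array. VWF gave -0.07 ± 0.30 (adjusted p = 0.929) and PECAM1 -0.02 ± 0.29 (adjusted p = 0.982). No macrophage, lymphocyte, red cell, fibroblast or smooth muscle marker was called, of 17, 12, 7, 13 and 11 measured, by limma over the 22 arrays or over the 8. Unadjusted p was under 0.05 for 0, 1, 0, 1 and 2 of them in the same order. CD68 had a change of -0.05 ± 0.54 (adjusted p = 0.974), PTPRC of -0.49 ± 0.40 (adjusted p = 0.538) and HBB, the haemoglobin beta gene, of 0.65 ± 0.34 (adjusted p = 0.276). TREM1 was the 1 of 12 neutrophil markers called, ARHGDIB of 12 pan-leukocyte markers, ITGB3 of 10 platelet markers and ZP4 of 12 oocyte markers, and all 4 rose. The list medians were 0.17, -0.31, 0.64 and -0.64 in that order, so the lone risen gene of the pan-leukocyte and oocyte lists went against its list's median. In the fit of the 8 arrays ARHGDIB passed, and TREM1, ITGB3 and ZP4 had adjusted p of 0.0861, 0.0546 and 0.0598 in that order. ZP4 also did not pass without ruptured replicate 5 (adjusted p = 0.0511). Of 13 epithelial markers KRT7 rose and KRT18 fell, with a median of 0.08. In the fit of the 8 arrays neither passed (adjusted p = 0.241 for KRT7 and 0.0944 for KRT18), and KRT7's call ended in 6 and KRT18's in 5 of the 8 fits that left out 1 array. NR2F2, a nuclear receptor gene of theca and stroma, was the only one of 10 theca markers called, with a change of -0.88 ± 0.14 (adjusted p = 0.000616).

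The summed linear intensities of the marker lists were compared over the 4 and 4 follicles by an exact permutation test, two-sided, over 13 lists. Granulosa markers summed to 13376 ± 2402 in ruptured and 8578 ± 1464 in unruptured follicles (SD, n = 4 each), a ratio of 1.56. Platelet markers summed to between 418.6 and 488.6 in ruptured and between 300.8 and 333.6 in unruptured follicles. Lymphocyte markers summed to 1409 ± 231 in ruptured and 2233 ± 234 in unruptured follicles. In these 3 lists the groups did not overlap, and each exact permutation p was 0.0286, the smallest that 4 against 4 can give, or 0.124 adjusted over the 13 lists. These lists were chosen with earlier results of these data known, and a sum is led by its brightest members, so these p-values do not speak for whole lists. INHBA, the 1 of 13 granulosa markers that rose while 1 fell, is among the brightest of them, next to SERPINE2. ITGB3, the 1 platelet marker called, is the brightest of its list. GZMA leads the lymphocyte sum, in which CD8A, CD8B, CD79A, CD79B, MS4A1, NKG7 and CCL5 lie below the arrays' median, and 6 of the 10 platelet markers lie below it, PPBP and GP9 among them. Summed levels of the other 10 lists overlapped, and for macrophages they ran from 2839 to 4991 in ruptured and from 3196 to 4617 in unruptured follicles. The part of these sums in the gene lists above was not tested.

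The change between ruptured and unruptured follicles was then set beside the change between 12 h and 0 h, which shares no array with it. At 12 h against 0 h, 4922 probe sets (9.33%) were called, of which 2259 (4.28%) rose and 2663 (5.05%) fell. Of the probe sets that rose in ruptured follicles, 1020 also rose at 12 h, which is 40% of those that rose in ruptured follicles and 45.2% of those that rose at 12 h. Likewise 958 fell in both, 36.4% of those that fell in ruptured follicles and 36% of those that fell at 12 h. Opposite calls were few, with 16 that rose in ruptured follicles and fell at 12 h and 3 the other way. Across the 25711 probe sets above the arrays' median the changes correlated with a Pearson r of 0.567 and a Spearman rho of 0.569, a description across genes, which are not independent replicates. AREG, PTX3, MMP1 and ADAMTS4 rose in both, and SIMC1 and LRRC17 fell in both. SIMC1's means were 10.92 at 0 h, 8.94 at 12 h and 10.98 at 24 h, then 9.10 in ruptured and 11.16 in unruptured follicles at 36 h.

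**Figure D4:**
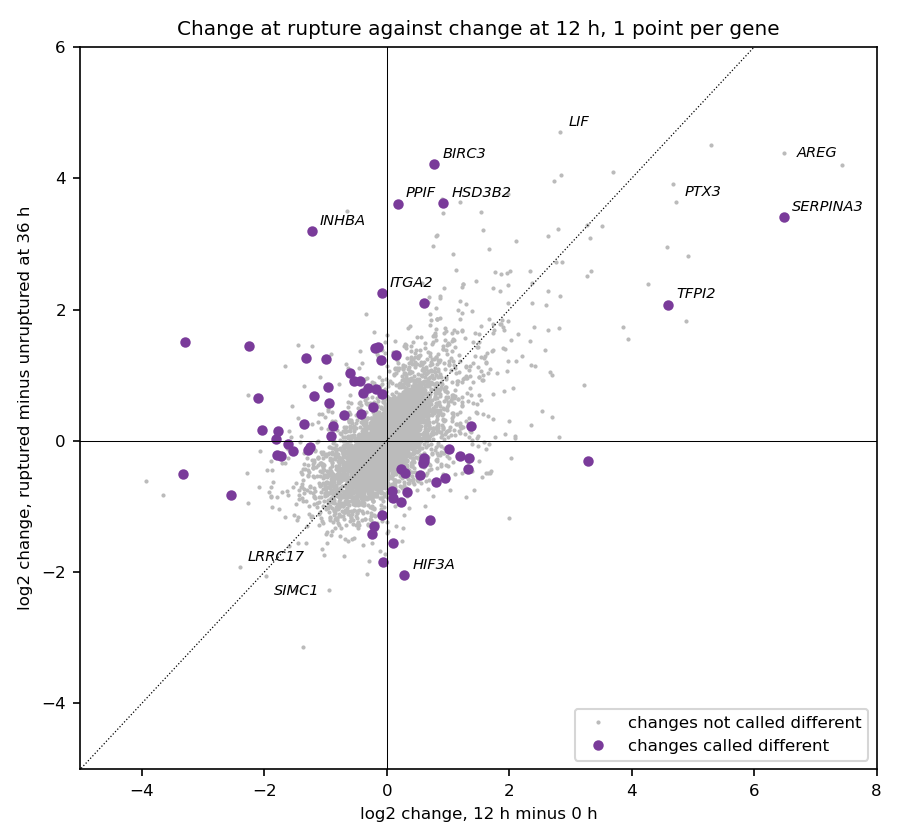
Log2 change between ruptured and unruptured follicles at 36 h (vertical axis) against the log2 change between 12 h and 0 h (horizontal axis), 1 point per gene whose mean reached a log2 intensity of 7 in at least 1 of these 4 groups, with genes whose changes were called different in purple and a dotted line where both are equal. Genes called in both comparisons lie mostly in the upper right or lower left corner, while BIRC3, PPIF and HSD3B2 lie high near 0 on the horizontal axis and INHBA lies left of it.

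The difference between the changes was itself tested, and 200 probe sets (0.379%) were called, 145 (0.275%) with the higher change at rupture and 55 (0.104%) with the lower. Unadjusted p was under 0.05 for 5686. Of the genes given next, PPIF was chosen after its values were seen. PPIF, the gene of cyclophilin D, which gates the mitochondrial permeability pore, had the smallest adjusted p. In ruptured follicles PPIF read 11.23, 10.34, 9.92 and 10.75, and in unruptured follicles 6.77, 7.09, 7.16 and 6.77. Its change was 3.61 ± 0.29 (adjusted p = 1.73e-06) in ruptured follicles, and 0.18 ± 0.26 at 12 h against 0 h (difference 3.43 ± 0.39, adjusted p = 0.000905). INHBA had the change given above in ruptured follicles and -1.22 ± 0.42 at 12 h (difference 4.42 ± 0.62, adjusted p = 0.00505). BIRC3 gave 0.78 ± 0.42 at 12 h (difference 3.44 ± 0.63, adjusted p = 0.0202), HSD3B2 0.92 ± 0.38 (difference 2.71 ± 0.57, adjusted p = 0.0434) and ITGA2 -0.08 ± 0.26 (difference 2.33 ± 0.38, adjusted p = 0.0116). These genes rose in ruptured follicles and were not called at 12 h. HSD3B2's means were 11.01 at 0 h, 11.92 at 12 h and 9.83 at 24 h, then 12.09 in ruptured and 8.46 in unruptured follicles. Its unruptured mean was thus below those of the earlier groups. A dimmer INHBA probe set was at 10.08, 8.77, 6.38, 9.70 and 6.33 in the same order, highest at 0 h. BIRC3 (4.31, 5.09, 4.83, 8.50 and 4.28) and PPIF (7.85, 8.02, 7.21, 10.56 and 6.95) were highest in ruptured follicles. SERPINA3 and TFPI2 rose in both, more at 12 h, by 6.48 ± 0.32 and 4.60 ± 0.34 (differences -3.07 ± 0.48, adjusted p = 0.00869 and -2.52 ± 0.50, adjusted p = 0.0317). HIF3A gave 0.28 ± 0.27 at 12 h (difference -2.33 ± 0.40, adjusted p = 0.0144), SMAD6 0.10 ± 0.20 (-1.66 ± 0.30, adjusted p = 0.0195) and ARHGEF26 -0.05 ± 0.24 (-1.80 ± 0.36, adjusted p = 0.0312), and these fell in ruptured follicles and were not called at 12 h. The count of 200 was 94 in a fit of the compared arrays alone and 44 once the RNA quality index was a covariate.

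**Figure D5:**
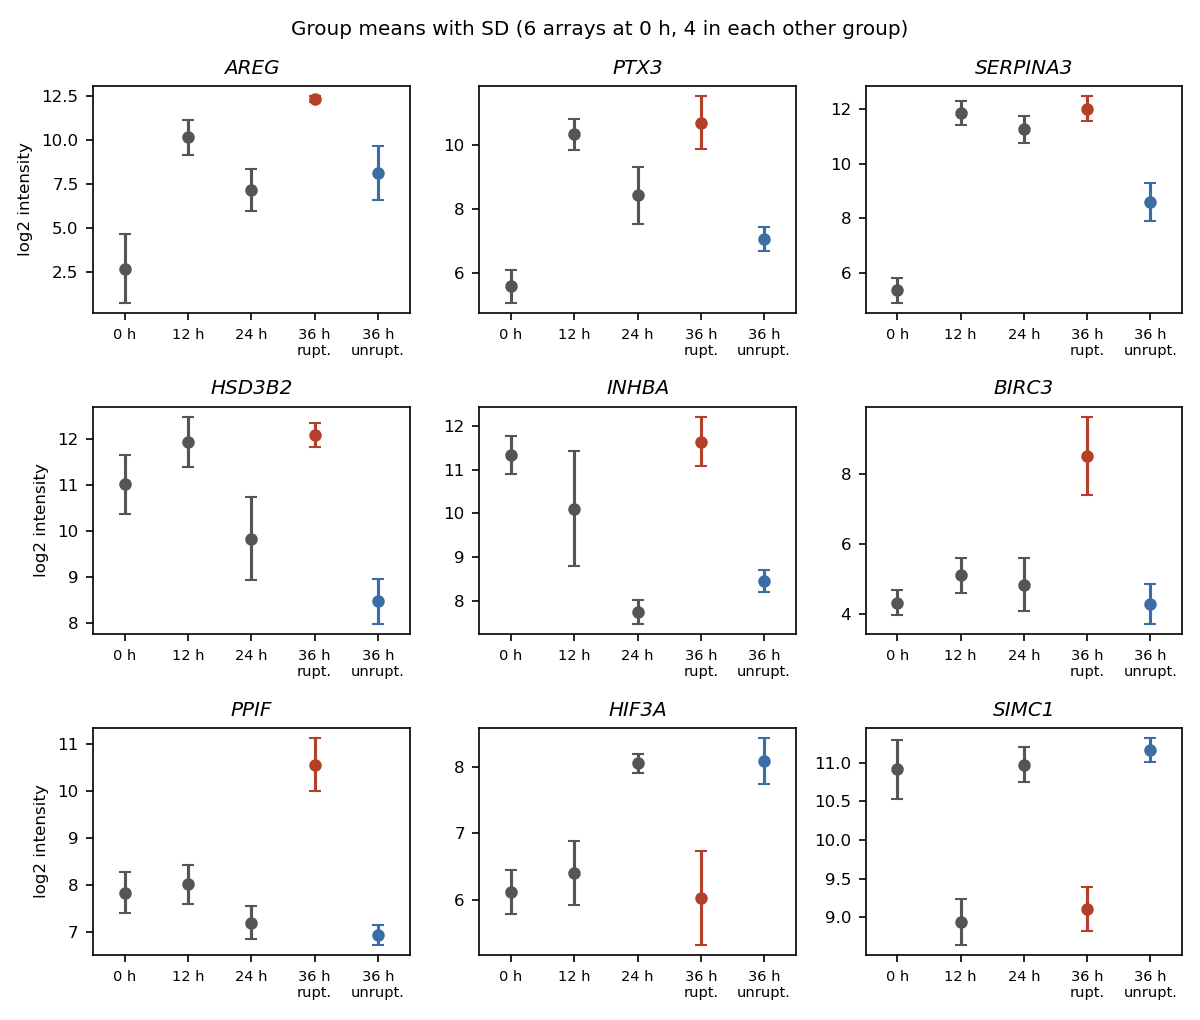
Group means of log2 intensity (vertical axes) with SD as error bars for 9 genes at 0 h (6 follicles), 12 h, 24 h and 36 h ruptured and unruptured (4 each). AREG, PTX3 and SERPINA3 are high at 12 h and in ruptured follicles, BIRC3 and PPIF are highest in ruptured follicles, and SIMC1 is low at 12 h and in ruptured follicles.

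Several list counts at 12 h against 0 h stand beside those at rupture. Over all genes by their brightest probe set, 6.5% rose and 7.8% fell at 12 h, or 14.3% in all. Of 17 macrophage markers 0 rose in ruptured follicles and 6 at 12 h, and of 12 pan-leukocyte markers 1 rose in ruptured follicles and 7 at 12 h. DNA replication and repair genes fell in 6 of 25 in ruptured follicles and in 16 at 12 h, and mitosis genes in 2 of 28 and 11 in the same order. Granulosa markers fell in 1 of 13 in ruptured follicles and in 6 at 12 h. Immediate early factors rose in 13 of 21 in ruptured follicles and in 7 at 12 h, and ribosome assembly genes in 21 of 41 and 14 in the same order. Whether these counts differ was not tested.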

How the data were processed

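The deposited values are linear intensities of Affymetrix macaque arrays, which the authors normalized by RMA per the submitters' processing notes (version not stated there). RMA brings arrays to 1 distribution, so a shift shared by all transcripts cannot be seen. Intensities ran from 0.0361 to 15137. They were taken to log2 as deposited, and 52766 probe sets were tested after 99 control probe sets of 52865 were left out. Probe sets were named by GEO's platform annotation (24956 with 1 symbol, 361 with several, 27449 with none), and 24616 of the 24956 gene IDs were found in the RefSeq gene table, with 0 symbols changed. A gene is given by its brightest probe set unless stated. No genome was used, so no positions are given.

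Samples were grouped by their titles. Group means of all 22 arrays in 5 groups were fitted by lmFit and eBayes of limma 3.58.1, run in R 4.3.3 (two-sided, Benjamini-Hochberg over all probe sets, adjusted p under 0.05). Marker sums were compared by exact permutation with SciPy 1.17.1. On simulated data of the ruptured comparison 63% of 2-fold and 96% of 4-fold changes were recovered with 9 false calls over 52766 probe sets. For the difference of changes these were 29%, 87% and 11. The simulation drew independent normal errors with the same spread in all groups and changed a small set of bright probe sets. It does not cover dim probe sets, genes that move together or groups of unequal spread, so these figures need not hold for the real arrays.

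Named genes were the 14 highest and 14 lowest called changes without overlap and with a mean of at least 7 in the higher group, up to 3 called members per list with the largest change, and a fixed panel. Further genes named in the text were picked with their values in view. The members and the 67 lists (1353 of 1911 genes measured) were chosen with earlier results of these data known. Alternatives were the compared arrays alone, 16 added, a filter on dim probe sets, other centring and normalization, another variance model, array weights, an RNA quality covariate and leaving out each array.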

Additional observations from a re-analysis of the deposited data

Results flagged for a closer look

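Among 368 groups of 4 values of named genes, 20 held a follicle far from the other 3 by Dixon's criterion, and chance gives about 5% of groups. Unruptured replicate 1 was set apart in 6 of them, with DUSP1 at 9.42, SMAD6 at 7.54, PLAUR at 6.21, CD55 at 7.52, TET3 at 6.72 and TFRC at 8.53, SMAD6 as the highest and the rest as the lowest of their group. Unruptured replicate 2 was lowest for MT1X at 6.67, HSPA4L at 4.45 and SLC6A9 at 2.83 and highest for AMOTL2 at 10.455. Unruptured replicate 3 was lowest for LPL at 7.54, MMP3 at 0.27 and PNISR at 9.50 and highest for TFPI2 at 10.84, and unruptured replicate 4 was lowest for the dimmer MMP1 probe set at 1.69. In the ruptured group, replicate 8 was lowest for HAS2 at 5.02, PNISR at 8.80 and the dimmer OMD probe set at 6.05, replicate 7 was highest for CDKN1A at 10.36, and replicate 5 was highest for UTP15 at 6.92.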

How the results depend on the processing

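Of 173 called changes of named genes, 83 did not pass with the compared arrays alone, 22 once the 3' minus 5' index was a covariate, 4 with array weights and at most 1 under each other setting of the whole set, and 40 failed without at least 1 array. None of the 173 changed direction, which the compared arrays alone could not alter. The number of probe sets called was 1318 with the compared arrays alone (60.5% of them higher, against 49.2% in the fit of 22 arrays) and 3590 to 4599 without 1 array, and by at least 2-fold it was 934 with the compared arrays alone, 1169 with 16 added and 1474 to 1865 without 1 array. For the difference of changes the count was 94 with the compared arrays alone, 397 with 16 added, 617 with the filter on dim probe sets, 472 with trended and robust variances, 44 with the index and 81 to 277 without 1 array. It was 81 without unruptured replicate 1, 105 without unruptured replicate 4, 98 without ruptured replicate 5, 112 without ruptured replicate 7, 133 without 0 h replicate 3 and 93 without 12 h replicate 2. Changes that were not called turned sign for CD68 (0.35 with the index and between -0.43 and 0.21 without 1 array), MKI67 (-0.052 and between -0.19 and 0.30), PECAM1 (0.23 and between -0.19 and 0.11) and VWF (0.16 and between -0.25 and 0.035), and the cause was not tested. Of 67 list medians, 17 changed sign under some setting. Centring moved the median of all changes by at most 0.0073. No paired analysis was possible because the replicate numbers of the ruptured and unruptured groups do not overlap. Scan dates, batches and detection calls were not used, 4 arrays a group limit the precision, and sizes of change for probe sets below the arrays' median of 4.73 are uncertain.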

Other observations

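Some gene families outside the groups described above also held called genes. RUNX1 and CEBPB, transcription factor genes known for their part in luteinization, rose with STAT3 and CEBPG as the 4 of 19 called on their list. RUNX1 was at 9.10, 9.91, 9.35 and 9.16 in ruptured and 7.62, 7.93, 7.35 and 7.50 in unruptured follicles (change 1.78 ± 0.25 SE, limma adjusted p = 0.000245). Of 38 ion channel genes the potassium channels KCNK1 and KCNK3 rose and KCNN2 and TRPC1 fell. That is 5.26% each way, below the 6.47% that rose and 7.67% that fell over all genes. KCNN2's call ended in 6 of the 8 fits that left out 1 array. KCNK1 read 8.68, 7.84, 7.97 and 8.41 in ruptured follicles, against 5.27, 5.75, 4.86 and 5.61 in unruptured ones, without overlap (change 2.85 ± 0.34, limma adjusted p = 6.61e-05). EPHA2, an ephrin receptor gene, rose by 1.86 ± 0.17 (limma adjusted p = 5.71e-06). Its list of axon guidance families had 40 measured genes, of which 2 rose (5%) and 3 fell (7.5%), both below the shares over all genes.

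Of 8 measured genes often used as references for expression, 2 were called, and the median change of the 8 was 0.099. TFRC, the transferrin receptor gene, was at 10.46, 10.17, 10.71 and 10.35 in ruptured and 8.53, 9.10, 9.18 and 9.11 in unruptured follicles (change 1.44 ± 0.21, limma adjusted p = 0.000302). HPRT1 was at 9.04, 8.79, 8.59 and 9.29 in ruptured and 7.86, 8.03, 7.91 and 7.72 in unruptured follicles (change 1.05 ± 0.13, limma adjusted p = 8.43e-05).

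The ruptured follicles differed among themselves in a set of genes. Replicate 8 was the lowest and replicate 7 the highest ruptured follicle in 92.3% of the 13 immediate early factors that rose, and in 16.4% of all 915 genes that rose. For the 6 cAMP genes that rose, replicate 8 was the lowest in 6, and for the 21 ribosome assembly genes that rose, in 5. The cause was not tested.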
